A study of Mus musculus with 24 samples.

Results

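The growth hormone and prolactin receptor axis was described by 9 genes: the receptors Ghr and Prlr, the transcription factors Stat5a and Stat5b, the feedback inhibitors Socs2 and Cish, and the insulin-like growth factor (IGF) genes Igf1, Igfals and Igfbp2. They were taken by gene symbol, and all 9 were found among the 50765 genes in each of 3 deposited tables. All 9 also passed the filter on low values in every comparison.

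Growth hormone and prolactin bind related cell surface receptors that lack a kinase of their own and signal through the bound kinase JAK2. JAK2 phosphorylates STAT5A and STAT5B, which pair, enter the nucleus and bind DNA at the palindrome TTCNNNGAA, where N is any base. In liver, the main target of growth hormone in metabolism and growth, this drives genes of circulating IGF1 and also genes of SOCS proteins, which switch the receptors off again. In rodents the pituitary releases growth hormone in pulses, and hepatic STAT5 activity rises and falls with them.

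The mice carried a deletion of 58 bp in exon 6 of Nudt12, a nudix hydrolase that acts on NAD and on RNA capped with NAD, or were wild type at that gene. The deletion was made with Cas9 and 2 guides in B6D2F1/J hybrid embryos, founders were crossed to C57BL/6J, and the knockouts come from 1 line. The deletion is in every cell of the animal, and the sources used here do not give the strain background of the wild-type mice. Livers of 3 wild-type and 3 knockout mice (the liver cohort) and kidneys of 2 wild-type and 3 knockout mice were taken at 3 to 4 months of age with no recorded time of day. The labels list a wild-type kidney 3, not analysed here. A separate time course held livers at 4 to 6 months of age after 10 days in 12 h of light and 12 h of dark, with 1 wild-type and 1 knockout library at each of 6 zeitgeber times (ZT, in hours from lights on): 0, 4, 8, 12, 16 and 20. The study asked how loss of Nudt12 alters transcript abundance in the 2 organs and around the light and dark cycle. Values are normalized estimated counts, called counts below. Nothing in the labels ties a library to a stated animal or litter, so p-values measure the spread between these libraries.

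Counts summed to 16.9 to 27.8 M (mega) per library. Nudt12 was lower in all 12 knockout libraries (177 to 348) than in all 11 wild-type libraries (613 to 1583). Summed hepatocyte markers (Alb, Apoa1, Ttr, Cyp2e1, Serpina1c) were 832444 to 1968490 in liver libraries and 25948 to 29884 in kidney libraries. In kidney Cyp2e1 made up most of the sum. Summed kidney tubule markers (6 genes) were 19.5 to 139 in liver libraries and 410024 to 444234 in kidney libraries. The Y-linked transcript Ddx3y was 1298 to 2086 and the X-inactivation transcript Xist 0 to 10.3 across all 23 libraries; the labels give no sex. Mitochondrially encoded genes took 16.1% of the wild-type kidney 1 library against 7.4 to 9.54% of the other kidney libraries, and 7.39% of the wild-type liver 1 library against 2.27 to 4.54% of the other liver cohort libraries.

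The 2 organs held the axis at different levels. The tables were normalized separately, so these levels are set side by side as CPM, here counts per 1e+06 of the library's own sum, with no test. Igfbp2 and Igf1 were the members furthest apart between wild-type organs. Igfbp2, whose protein binds IGFs in plasma, was at 132 ± 54.4 CPM in liver (SD, n = 3) and 1.31 ± 0.411 in kidney (SD, n = 2), 101-fold higher in liver. Igf1, the growth factor itself, was at 267 ± 64.3 CPM in liver and 10.2 ± 4.2 in kidney, 26.1-fold higher in liver. Igfals, the acid-labile subunit that holds IGF1 in a large plasma complex, was 5.5-fold higher in liver (64 ± 3.07 against 11.7 ± 0.599 CPM).

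Between wild-type organs the receptors went opposite ways, which for Prlr rests on 2 wild-type kidneys and did not hold in knockouts. Ghr was at 366 ± 40.4 CPM in wild-type liver and 714 ± 66.4 in wild-type kidney, 1.95-fold higher in kidney. Prlr was at 39.4 ± 15 CPM in wild-type liver and 13.7 ± 2.41 in wild-type kidney, 2.88-fold higher in liver. In wild type Stat5a was 2.28-fold higher in kidney and Stat5b 1.37-fold higher in liver. The wild-type libraries of the liver cohort and of kidney did not overlap for these genes, whereas those of Socs2 and Cish did. Knockout Prlr was at 44.7 ± 14.6 CPM in the liver cohort and 47.1 ± 12.2 in kidney (SD, n = 3 each), and these overlapped. Knockout Ghr was at 491 ± 16.9 and 719 ± 16.8 CPM. Stat5b overlapped between organs in knockouts (34.7 to 50.5 CPM in liver, 33.8 to 42.7 in kidney). In wild-type time course livers Stat5b was 28.1 to 58.3 CPM, beside 33.2 to 35.7 in wild-type kidney. In bulk tissue, fewer cells of a type and less RNA per cell cannot be told apart.

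In CPM per kilobase of exon, the order in wild-type liver of the liver cohort was Igfbp2 (71.4), Ghr (40.5), Igf1 (26.9), Igfals (20.2), Stat5b (8.48), Prlr (2.57), Socs2 (1.94), Cish (1.75) and Stat5a (1.25). Igfbp2 and Ghr overlapped between libraries, as did Igf1 and Igfals, and as did each neighbour from Prlr down to Stat5a. In wild-type kidney Ghr led at 78.9, followed by Stat5b (6.21) and Igfals (3.68), with no overlap between these. The other 6 members lay between 0.708 and 2.86 CPM per kilobase, each overlapping its neighbour in the order. Ghr was thus far above every other member in kidney on this scale, while in liver Igfbp2, Igf1 and Igfals lay within a few fold of it. The plot of each member in every library shows these levels in CPM without the correction for length.

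**Figure D1:**
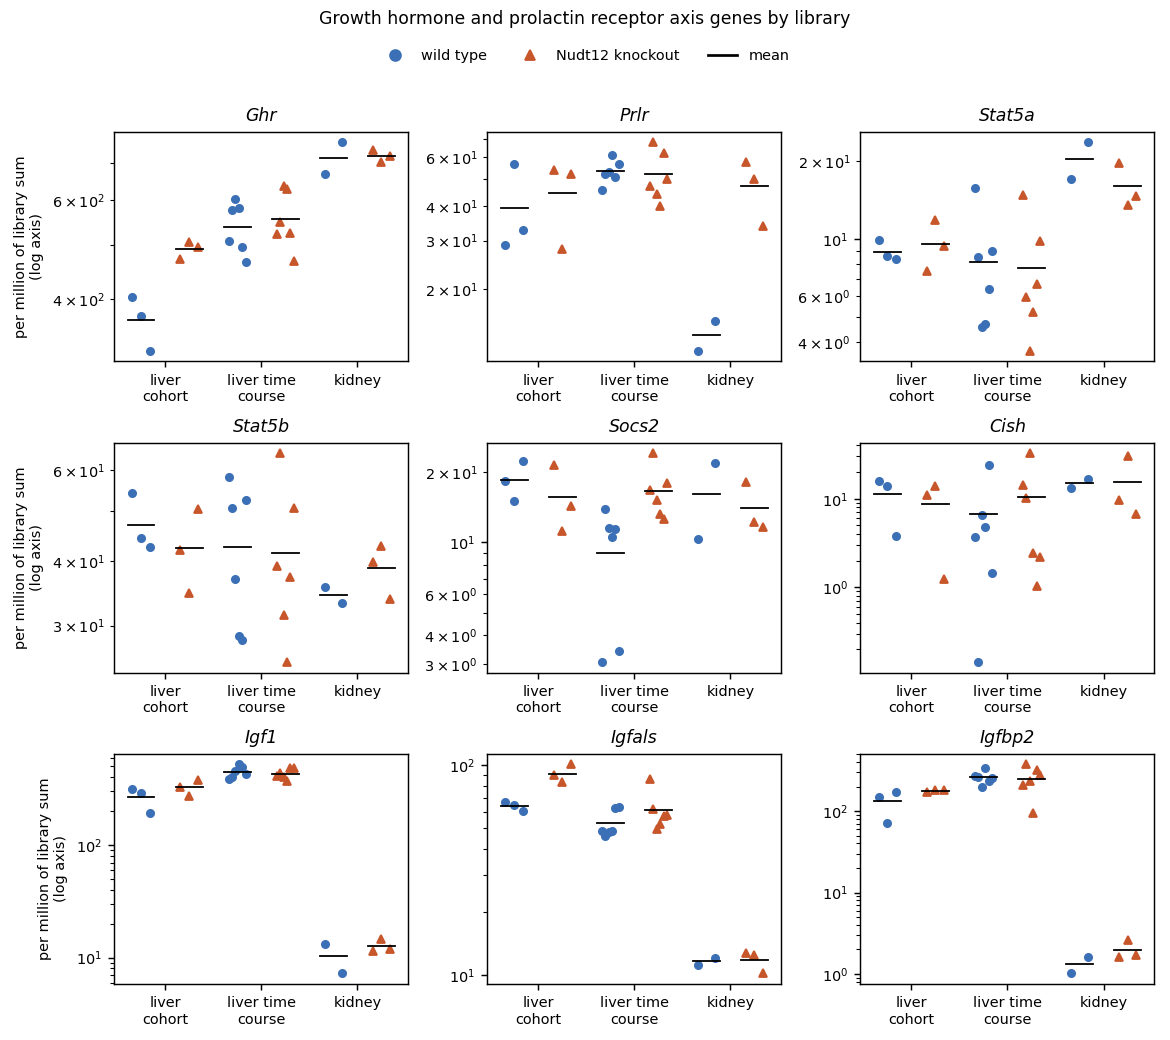
Level of each of the 9 genes in every library as CPM of the library sum (log axis, a different range in each panel), in the liver cohort, the liver time course and kidney; circles are wild type, triangles are knockout and lines are group means. Igf1, Igfals and Igfbp2 are low in kidney, Ghr is high there, and the 3 knockout kidneys lie above both wild-type kidneys for Prlr.

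In knockout against wild-type mice, no member passed the adjusted threshold of 0.05 in limma in any of the 3 sets of libraries. The members whose groups did not overlap differed from set to set. In the liver cohort and kidney their counts are too small to set apart from the shares of all genes given below. In the liver cohort Ghr and Igfals were higher in every knockout library. In kidney Prlr was higher in every knockout library, 3.22-fold in the fit. In the time course Socs2 was higher in every knockout library than in any wild-type library. In the liver cohort 0 of 9 members were called, against 0.0157% of the 19088 genes tested, and 2 of 9 had an unadjusted p under 0.05, against 7.99% of all genes. The same 2 members had groups that did not overlap, against 13.9% of all genes. In kidney 0 of 9 were called (0.0045% of 22224 genes), 1 of 9 had an unadjusted p under 0.05 (5.4% of all genes), and the same 1 did not overlap (20.5% of all genes). In the time course 0 of 9 were called (0.00535% of 18702 genes), 1 of 9 had an unadjusted p under 0.05 (5.99% of all genes), and the same 1 did not overlap (0.198% of all genes). In the authors' deposited table Prlr in kidney had an adjusted p under the same threshold, and no other member did in any set. Of the 50765 genes listed, 211 in the liver cohort, 88 in kidney and 6 in the time course were under it by the authors' values. The median estimate of the 9 members (log2, knockout over wild type) was 0.15 in the liver cohort, -0.06 in kidney and -0.04 in the time course, beside 0.00 over all genes in each.

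**Figure D2:**
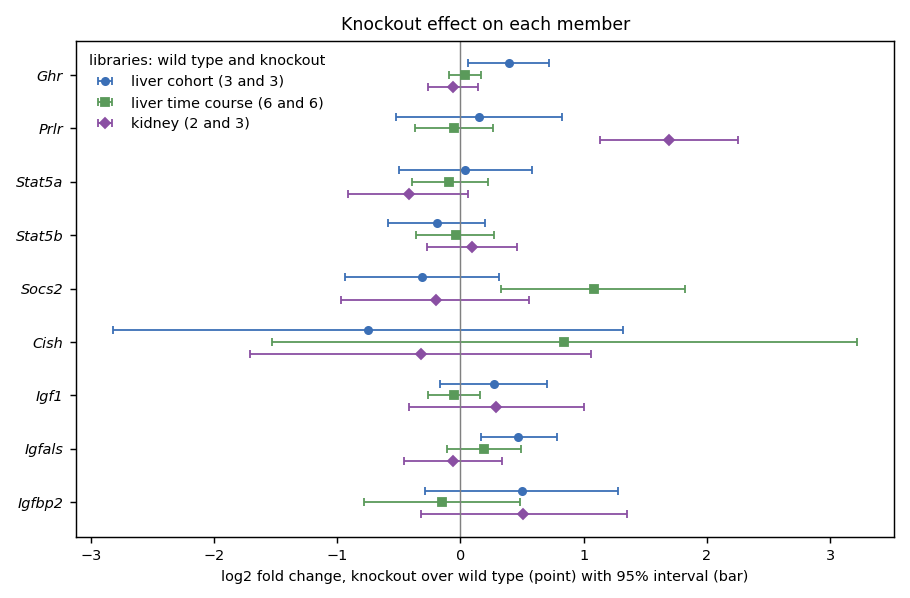
Knockout effect on each of the 9 genes as the log2 fold change of knockout over wild type (horizontal axis; points, with 95% intervals from limma as bars) in the liver cohort, the liver time course and kidney. The interval of Prlr in kidney runs from 1.13 to 2.25, that of Socs2 in the time course from 0.33 to 1.82, and those of Cish are the widest of the 9 genes in all 3 sets.

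Ghr, the growth hormone receptor (chr15:3317760-3583492, minus strand, GRCm38), had counts of 10346, 8968 and 8893 in the wild-type livers of the liver cohort and 11547, 13319 and 12061 in the knockout livers. All 3 knockout livers lay above all 3 wild-type livers. The log2 difference was 0.39 ± 0.14 (SE; limma unadjusted p = 0.0265, adjusted p = 0.586). In kidney Ghr was 18514 and 19277 in wild type and 18555, 17891 and 18069 in knockouts, which overlapped, with a log2 difference of -0.06 ± 0.08 (SE; limma adjusted p = 0.983). The time course gave a log2 difference of 0.04 ± 0.06 (SE; limma adjusted p = 0.937), and the knockout was higher at 4 of 6 times. The Ghr groups thus did not overlap in the liver cohort alone, where the same held for 13.9% of all genes. The limma test of the time course effect against the liver cohort effect gave a difference of -0.35 ± 0.13 (SE; unadjusted p = 0.0159, adjusted p = 0.346).

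Other genes also had groups that did not overlap in these livers, though none named here passed the adjusted threshold. Of 5 clock genes, 4 had groups that did not overlap in the liver cohort: Arntl, which encodes BMAL1, was 237 to 507 in wild type and 21.3 to 55.3 in knockouts, and its opposite-phase output gene Dbp was 32.5 to 401 in wild type and 1203 to 1526 in knockouts. Summed counts of the 5 clock genes were 712 to 1527 in wild type and 2117 to 3035 in knockouts, with none at 0. In the time course, where both genotypes share collection times, 0 of 5 had an unadjusted limma p under 0.05. There Arntl was 15.5 to 638 in wild type and 23.9 to 557 in knockouts, and Dbp 12.4 to 1222 and 17.7 to 1178. The liver cohort and kidneys have no recorded time of day, so genotype and time of collection cannot be told apart in them. All 5 acute-phase genes were lower in every knockout, with summed counts of 79155 to 304059 in wild type and 44088 to 55533 in knockouts. The serum amyloid gene Saa1 was 9662 to 57294 in wild type and 584 to 1155 in knockouts. Of 5 hepatocyte markers, 3 were higher in every knockout, with summed counts of 1196670 to 1406621 in wild type and 1323036 to 1968490 in knockouts. The part of these genes in the values of Ghr and Igfals was not tested.

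Prlr, the prolactin receptor (chr15:10177238-10349180, plus strand, GRCm38), was at 332 and 390 counts in the wild-type kidneys and at 1454, 1274 and 847 in the knockout kidneys. The lowest knockout kidney was above both wild-type kidneys by more than their distance from each other. Prlr was higher by 1.69 ± 0.24 on the log2 scale (SE; 3.22-fold), with an unadjusted limma p of 0.000201 and an adjusted p of 0.307. With 2 wild-type kidneys the test had 3 residual degrees of freedom. In the authors' deposited table the log2 fold change was 1.64 with an adjusted p of 1.05e-07. The sources used here do not say how that p was obtained.

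The liver sets did not share this difference for Prlr. In the liver cohort Prlr was 742, 1362 and 900 in wild type and 1319, 735 and 1275 in knockouts, with a log2 difference of 0.15 ± 0.29 (SE; limma adjusted p = 0.921). Time course counts were 821 to 1168 in wild type and 760 to 1238 in knockouts, with a log2 difference of -0.05 ± 0.14 (SE; limma adjusted p = 0.967). The groups overlapped in both. The kidney effect minus the liver cohort effect was 1.54 ± 0.43 (SE; limma unadjusted p = 0.00473, adjusted p = 0.873). None of the 9 members was called in that test, against 0.00545% of 18354 genes, and 3 of 9 (Prlr, Igfals and Ghr) had an unadjusted p under 0.05, against 4.41% of all genes. In kidney too 4 of 5 clock genes did not overlap between genotypes, among them Arntl (215 to 372 in wild type, 25.8 to 66.3 in knockouts) and Dbp (393 to 1044 and 1769 to 2235). Summed clock gene counts were 1394 to 2403 in wild-type and 2931 to 3691 in knockout kidneys, with none of the 5 at 0. Summed tubule markers were 410024 to 433046 in wild-type and 420557 to 444234 in knockout kidneys. Their part in the Prlr difference was not tested.

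Stat5a and Stat5b lie 8627 bp apart on chromosome 11 and encode near-identical proteins that act in the same pathway. Of the 31-base words in their transcripts, 836 were shared, which is 11.5% of those of Stat5a and 15.1% of those of Stat5b, so the estimated counts of the 2 genes may be split imperfectly and each is uncertain to that extent. Stat5a was at 254, 207 and 230 counts in wild-type and 184, 312 and 229 in knockout livers of the liver cohort. It was at 476 and 600 in wild-type and 497, 345 and 368 in knockout kidneys. The groups overlapped in both organs. The limma log2 difference of Stat5a was 0.04 ± 0.23 (SE; adjusted p = 0.975) in the liver cohort, -0.42 ± 0.20 (adjusted p = 0.909) in kidney and -0.09 ± 0.14 (adjusted p = 0.939) in the time course.

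Stat5b was the more abundant of the pair in every group per kilobase. Its counts were 1386, 1069 and 1170 in wild-type and 1029, 914 and 1232 in knockout livers of the liver cohort, and 990 and 840 in wild-type and 1004, 1087 and 848 in knockout kidneys, and these overlapped. Its limma log2 differences were -0.19 ± 0.17, 0.09 ± 0.15 and -0.04 ± 0.14 (SE) in the liver cohort, kidney and the time course, with 95% intervals of -0.59 to 0.20, -0.27 to 0.46 and -0.36 to 0.27.

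Socs2 (chr10:95385362-95417180, minus strand, GRCm38) encodes a suppressor of cytokine signalling whose loss gives giant mice. In the wild-type livers of the time course its counts were 55, 235, 214, 203, 215 and 67.2 at ZT0, 4, 8, 12, 16 and 20. In the knockout livers they were 302, 411, 271, 254, 250 and 342 at the same times. The lowest knockout value was above the highest wild-type value, and the gap was widest at ZT0 and ZT20, where the knockout was 5.5 and 5.1 times the wild type, against 1.16 to 1.75 times at the other 4 times. The log2 difference was 1.08 ± 0.33 (SE; 2.11-fold, limma unadjusted p = 0.0101, adjusted p = 0.815), higher in 6 of 6 pairs.

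The liver cohort did not show Socs2 higher in knockouts. There it was 468, 361 and 614 in wild type and 523, 296 and 349 in knockouts, with a log2 difference of -0.31 ± 0.27 (SE; limma adjusted p = 0.788). In kidney it was 285 and 557 in wild type and 458, 311 and 292 in knockouts, with a log2 difference of -0.20 ± 0.32 (SE; limma adjusted p = 0.984). Both pairs of groups overlapped. The time course effect minus the liver cohort effect was 1.39 ± 0.52 (SE; limma unadjusted p = 0.0199, adjusted p = 0.374). In that test 0 of 9 members were called, against 0.0388% of 18029 genes, and 2 of 9 (Ghr and Socs2) had an unadjusted p under 0.05, against 10.4% of all genes. All 5 acute-phase genes of the time course had higher estimates in knockouts. Of these, 4 had an unadjusted limma p under 0.05, against 5.99% of all genes, and 0 were called. The groups of all 5 overlapped, in a set where only 0.198% of all genes did not. Summed counts of the acute-phase genes were 16897 to 20339 in wild type and 18117 to 38445 in knockouts. Their part in the Socs2 difference was not tested.

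Cish encodes a STAT5-induced inhibitor of cytokine receptors. Its sequence is shown because its start region held 2 copies of the STAT5 palindrome, the only window found for the members with more than 1 copy. RefSeq start windows (250 bases before to 50 after an annotated start, GRCm38.p6) were found for 8 of the 9 genes, in 16 windows. Socs2 had no window and was not searched. TTCNNNGAA, which reads the same on both strands, was present in 4 of these windows, from 3 genes. It was present in 8.3% of all 32851 windows of that length, and 0.457% held 2 or more copies. The stretch of the Cish window below, chr9:107296509-107296678 on the plus strand, ends 20 bases past the annotated start, and capitals mark the palindromes, which begin at bases 1 and 12 of the transcript.
Cish: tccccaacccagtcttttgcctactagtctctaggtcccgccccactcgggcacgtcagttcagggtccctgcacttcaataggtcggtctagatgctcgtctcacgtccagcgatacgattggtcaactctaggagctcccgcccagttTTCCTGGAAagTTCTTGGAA
The other matches, shown beside it for comparison, were 1 in a Prlr window (chr15:10223766-10223835, plus strand; the palindrome starts 110 bases before that annotated start) and 1 in each of 2 Igfals windows (chr17:24877594-24877663 and chr17:24878143-24878212, plus strand; 236 and 58 bases before).
Prlr: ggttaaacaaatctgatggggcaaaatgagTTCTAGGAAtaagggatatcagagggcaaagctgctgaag
Igfals, first window: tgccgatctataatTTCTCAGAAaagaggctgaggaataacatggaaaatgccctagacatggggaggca
Igfals, second window: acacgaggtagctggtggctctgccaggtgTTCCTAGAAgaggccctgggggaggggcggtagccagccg
A match in these letters is a description of the sequence and does not show that STAT5 binds there. The clock E-box CACGTG, also a palindrome, was in 1 of the 16 windows, that of Igfbp2, and in 7.15% of all windows.

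Cish varied more between libraries than any other member. Its counts in the wild-type time course were 65.8, 2.43, 120, 91.9, 446 and 28.8 at ZT0, 4, 8, 12, 16 and 20, and in the knockouts 259, 175, 578, 46.5, 20.4 and 41.8. The wild-type value was highest at ZT16, where the knockout was lowest, and the knockout was highest at ZT8, so neither genotype was above the other throughout. The range was 183-fold in wild type and 28.4-fold in knockouts. In the liver cohort Cish was 407, 336 and 105 in wild type and 268, 363 and 30.4 in knockouts, and in kidney 366 and 424 in wild type and 241, 774 and 167 in knockouts. The limma log2 differences were -0.75 ± 0.90, -0.32 ± 0.58 and 0.84 ± 1.05 (SE) in the liver cohort, kidney and the time course, with adjusted p of 0.855, 0.985 and 0.931. The 95% intervals were -2.82 to 1.32, -1.71 to 1.06 and -1.53 to 3.22 on the log2 scale. Changes within these limits, in either direction, are not excluded by these libraries.

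The spread of the members around their group means (and, in the time course, their time means) ran from among the smallest to among the largest in the tables. Genes with a mean count of at least 100 were ranked by their residual SD on the log2 scale in each set. Cish was at the 99.1, 98.6 and 99.5 percentile in the liver cohort, kidney and the time course, with residual SDs of 1.55, 0.94 and 2.40. Ghr was at the 8.57, 1.22 and 1.94 percentile, with residual SDs of 0.11, 0.03 and 0.06, beside medians of 0.25, 0.17 and 0.21 over all genes. The receptor thus varied little where the feedback inhibitor downstream of it varied most. Socs2, the other inhibitor, was at the 77.2, 93.5 and 96.3 percentile, and Igfbp2 at the 89.4, 88.1 and 94.5 percentile. The plot of residual SDs shows all 9 members.

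**Figure D3:**
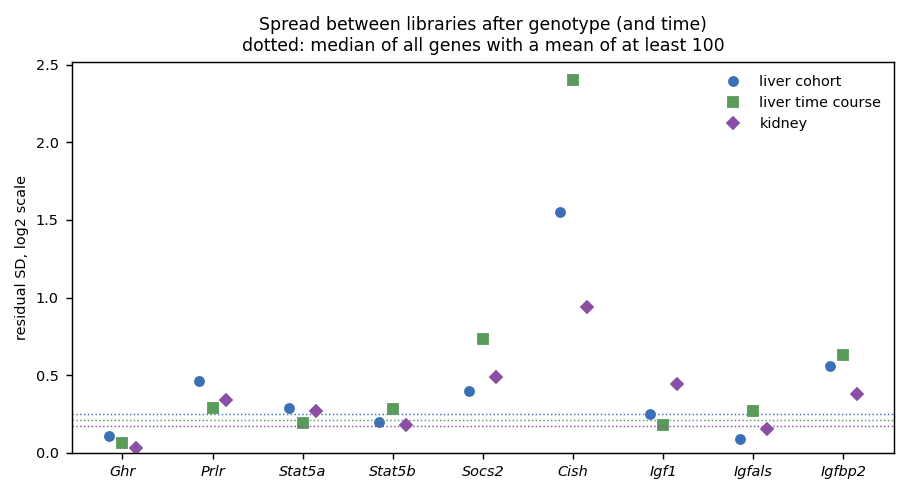
Residual SD of each of the 9 genes between libraries after genotype (and time in the time course) on the log2 scale, in the liver cohort, the liver time course and kidney, with the median over all genes with a mean of at least 100 as dotted lines. Cish lies far above the medians in all 3 sets, at 0.94 to 2.40, and Ghr below them, at 0.03 to 0.11.

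Igf1 (chr10:87858265-87937042, plus strand, GRCm38) was at 8067, 7023 and 5324 counts in wild-type and 7961, 7129 and 9234 in knockout livers of the liver cohort. In kidney it was 366 and 184 in wild type and 287, 375 and 298 in knockouts, and in the time course 6785 to 9936 in wild type and 7135 to 9712 in knockouts. The groups overlapped in all 3 sets. The limma log2 differences were 0.27 ± 0.19, 0.29 ± 0.30 and -0.05 ± 0.09 (SE; adjusted p = 0.746, 0.952 and 0.951). The interval in the time course, -0.26 to 0.16, is the narrowest of the 3.

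Igfals (chr17:24865997-24882010, plus strand, GRCm38) was at 1710, 1559 and 1668 counts in wild-type livers of the liver cohort and 2190, 2195 and 2472 in knockout livers. The 3 knockouts were all above the 3 wild types, and both groups were tight: the residual SD of 0.09 was at the 3.21 percentile of all genes. The log2 difference was 0.47 ± 0.13 (SE; 1.39-fold, limma unadjusted p = 0.00703, adjusted p = 0.437). In the authors' deposited table the Igfals log2 fold change was 0.36 with an adjusted p of 0.113. In kidney Igfals was 312 and 306 in wild type and 323, 316 and 256 in knockouts, with a log2 difference of -0.06 ± 0.17 (SE; limma adjusted p = 0.992). In the time course it was 779 to 1247 in wild type and 881 to 1565 in knockouts, with a log2 difference of 0.19 ± 0.13 (SE; limma adjusted p = 0.882). The kidney effect minus the liver cohort effect was -0.53 ± 0.19 (SE; limma unadjusted p = 0.0166).

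Igfbp2 (chr1:72824503-72852474, plus strand, GRCm38) was at 3875, 1701 and 4793 counts in wild-type and 4188, 4759 and 4455 in knockout livers of the liver cohort. The knockouts lay inside the wild-type range. In kidney, where it was the lowest member, it was 28.3 and 40.6 in wild type and 40.3, 66.9 and 43.1 in knockouts. The limma log2 differences were 0.50 ± 0.34, 0.51 ± 0.35 and -0.15 ± 0.28 (SE) in the liver cohort, kidney and the time course, with adjusted p of 0.734, 0.936 and 0.951.

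Through the day in liver, 3 of the 9 members followed a 24 h curve past the adjusted threshold when both genotypes were fitted together: Stat5a, Stat5b and Ghr. The STAT5 genes were high around lights on and low in the second part of the light phase and around lights off, and Ghr ran the other way. The 3 of 9 compare with 5.8% of the 18702 genes tested, and 5 of 9 had an unadjusted p under 0.05, against 21% of all genes. The median peak-to-trough difference of the 9 members was 0.48 on the log2 scale, beside 0.58 over all genes. The count of 3 was 0 to 2 when each time point was left out in turn, and 0 in either genotype alone.

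Stat5a was at 281, 143, 84.6, 89.3, 121 and 177 counts at ZT0, 4, 8, 12, 16 and 20 in wild type and at 268, 102, 65.8, 99.6, 134 and 189 in knockouts. Both genotypes were highest at ZT0 and lowest at ZT8. The peak-to-trough difference was 1.62 ± 0.24 on the log2 scale (SE; 3.08-fold, limma adjusted p = 0.00612) with a fitted peak at ZT22.1. Without ZT8 the adjusted p was 0.0517, and without any other single time Stat5a stayed past the threshold.

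Stat5b was at 1047, 855, 688, 546, 529 and 1032 in wild type and 708, 1102, 559, 484, 742 and 972 in knockouts. The lowest values came at ZT16 in wild type and ZT12 in knockouts. The peak-to-trough difference was 0.94 ± 0.21 (SE; 1.91-fold, limma adjusted p = 0.0489), with a fitted peak at ZT23.9. Ghr was at 9093, 9713, 11206, 11095, 9294 and 9151 in wild type and 9430, 9334, 11342, 11968, 10422 and 8950 in knockouts. It was highest at ZT8 in wild type and ZT12 in knockouts. Its peak-to-trough difference was small, 0.37 ± 0.08 (SE; 1.29-fold, limma adjusted p = 0.0489), with a fitted peak at ZT10.3. The calls of Ghr and Stat5b sit at the threshold: leaving out any 1 time point gave an adjusted p of 0.0716 to 0.243 for Ghr, and 0.0216 to 0.276 for Stat5b.

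**Figure D4:**
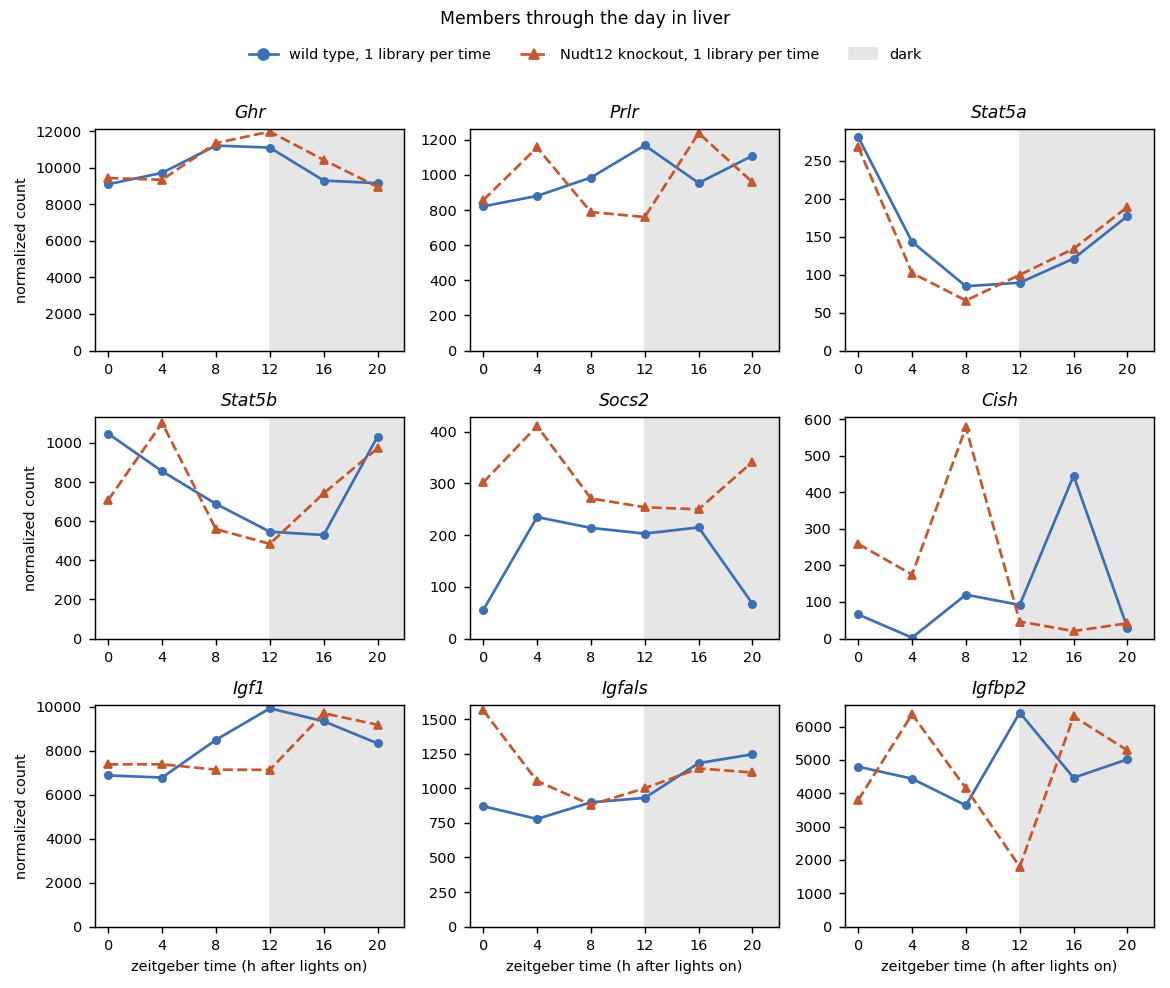
Counts of the 9 genes in the liver time course (vertical axis from 0) against zeitgeber time in hours after lights on, with 1 wild-type library (circles, solid line) and 1 knockout library (triangles, dashed line) per time; the dark phase is shaded. Stat5a falls from 281 and 268 at ZT0 to 84.6 and 65.8 at ZT8 in both genotypes, and knockout Socs2 lies above wild type at all 6 times.

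The IGF genes had fitted peaks in the dark phase that did not pass the adjusted threshold. Igf1 was 6882, 6785, 8502, 9936, 9349 and 8342 counts at ZT0 to ZT20 in wild type and 7386, 7389, 7144, 7135, 9712 and 9189 in knockouts. Wild type was highest at ZT12, and the knockout at ZT16. The fitted peak-to-trough difference was 0.42 ± 0.12 on the log2 scale (SE; limma unadjusted p = 0.0152, adjusted p = 0.13), with a peak at ZT15.6. Igfals had a difference of 0.48 ± 0.17 (SE; unadjusted p = 0.0411, adjusted p = 0.217), with a peak at ZT19.6, and its highest value was the knockout library at ZT0 (1565). Prlr, Socs2, Cish and Igfbp2 had adjusted p of 0.777, 0.486, 0.892 and 0.755.

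Whether the daily curve differed between genotypes was tested as an interaction in limma. None of the 9 members was called, as was 0% of the 18702 genes, and 3 of 9 (Cish, Socs2 and Igf1) had an unadjusted p under 0.05, against 4.78% of all genes. For Cish the fitted peak was at ZT14.7 in wild type and ZT4.7 in knockouts, with peak-to-trough differences of 4.41 and 4.17 (log2; unadjusted p = 0.0104, adjusted p = 0.999). For Socs2 the peak-to-trough difference was 2.03 in wild type and 0.56 in knockouts (log2; unadjusted p = 0.0175, adjusted p = 0.999). For Igf1 the fitted peak was at ZT13.7 in wild type and ZT18.2 in knockouts (unadjusted p = 0.0494, adjusted p = 0.999). Each curve of a genotype rests on 6 libraries, 1 per time, so a difference of curves and a difference of single animals cannot be told apart. Of the other lists, Bcl6 had the smallest p among the regulators in this test, with a fitted peak at ZT1.4 in wild type and ZT14.4 in knockouts (unadjusted p = 0.00528, adjusted p = 0.999).

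Bcl6 encodes a transcriptional repressor that shares binding sites with STAT5 in mouse liver. It was 459, 822, 246, 426, 97.4 and 925 counts at ZT0 to ZT20 in wild type and 118, 81.5, 151, 824, 671 and 210 in knockouts. The library with the most Cish in wild type, ZT16, had the least Bcl6, and the libraries with the least Cish, ZT4 and ZT20, had the most Bcl6. This pair was chosen after its values were seen, so its correlation in these libraries is a description with no test. Over the 12 time course libraries Cish and Bcl6 had a Pearson r of -0.80 and a Spearman rho of -0.80. Without the 2 libraries farthest from the median of Cish r was -0.84, and it was -0.85 within wild type and -0.75 within knockouts. Socs2 and Bcl6 had r = -0.51 and rho = -0.53, with r = -0.47 without the 2 farthest libraries.

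The 6 livers of the liver cohort gave a second look at Cish and Bcl6. Bcl6 was 174, 113 and 290 counts in wild type and 117, 344 and 829 in knockouts, and the library with the least Cish (knockout 3, at 30.4) had the most Bcl6. Pearson r was -0.80 (exact permutation p = 0.0597, n = 6) and Spearman rho -0.37 (exact permutation p = 0.497, n = 6). Without the 2 farthest libraries r was 0.53, so in the liver cohort the relation rests on those 2. In the 5 kidneys, for which no correlation was computed, Bcl6 was 285 and 319 in wild type and 489, 312 and 1260 in knockouts, beside Cish at 366 and 424 in wild type and 241, 774 and 167 in knockouts. The labels do not say whether these kidneys came from the same mice as the livers.

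**Figure D5:**
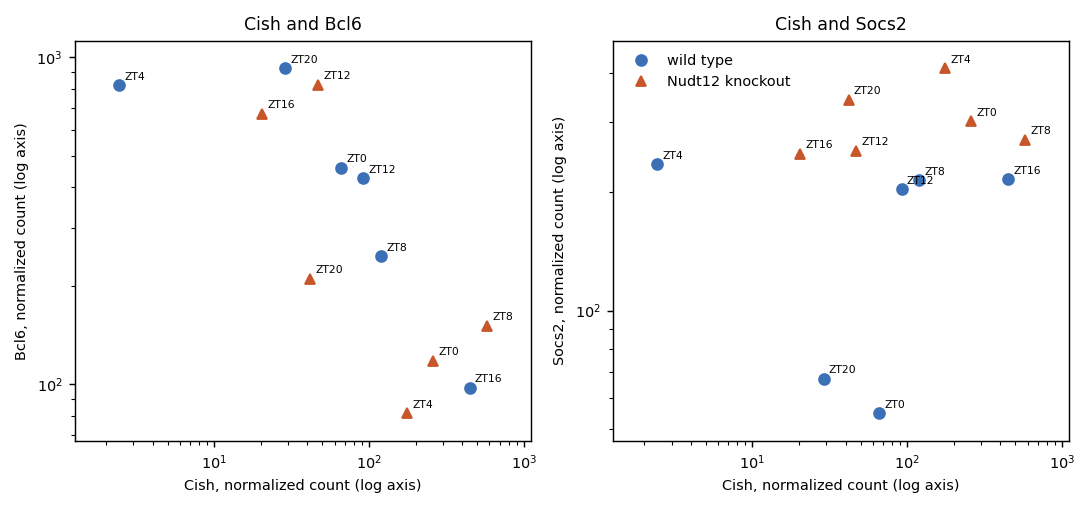
Counts of Cish (horizontal, log axis) against Bcl6 (left panel) and Socs2 (right panel; vertical log axes) in the 12 libraries of the liver time course, labelled by zeitgeber time; circles are wild type and triangles are knockout. Bcl6 is high where Cish is low (Pearson r = -0.80 on the log2 scale), and Cish and Socs2 show little relation (r = 0.20).

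Among the members themselves, 36 pairs were compared over the 12 time course libraries, and 1 passed the adjusted threshold. Prlr and Igfbp2 had a Pearson r of 0.75 (permutation p = 0.00122, adjusted p = 0.0439) and a Spearman rho of 0.76 (permutation p = 0.00537, adjusted p = 0.0664). Without the 2 libraries farthest from the median of Prlr r was 0.70, and it was 0.52 within wild type and 0.82 within knockouts. Igfbp2 was 4799, 4438, 3636, 6422, 4467 and 5020 counts at ZT0 to ZT20 in wild type and 3795, 6373, 4148, 1795, 6308 and 5287 in knockouts. The knockout library at ZT12 was lowest for both genes (760 for Prlr and 1795 for Igfbp2), whereas the wild-type library at ZT12 was highest for Igfbp2 and second to a knockout for Prlr. Ghr went against Stat5a (r = -0.75, permutation p = 0.00684, adjusted p = 0.106; rho = -0.79, permutation p = 0.00345, adjusted p = 0.0664), with r = -0.70 without the 2 farthest libraries. With genotype and the 24 h curve removed from both genes the sign turned: r was 0.65 and rho 0.66. Prlr and Igfbp2 kept their sign in those residuals, with r = 0.81 and rho = 0.64. The residuals are a description with no test. That fit leaves 8 residual degrees of freedom, so permuting 12 residuals as if each were free gives p-values that are too small. Cish and Socs2, both STAT5-induced inhibitors, had r = 0.20 (permutation p = 0.529, adjusted p = 0.907) and rho = 0.23 (permutation p = 0.473, adjusted p = 0.834), with r = 0.12 without the 2 farthest libraries.

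The genes whose log2 counts followed a member most closely over the same 12 libraries were sought among 8547 genes with a mean of at least 100. They are named as a description, since the best of so many is high by choice. For Ghr they were Gpcpd1, Mfsd4b1 and Fam91a1 (r = 0.95, 0.93 and 0.93), and for Stat5a Pxmp4, Gimap9 and Cks2 (0.95, 0.94 and 0.93). For Stat5b they were Srrt, Mreg and Bhmt (0.93, 0.93 and 0.92), and for Cish Slc25a30, Onecut1 and Zfp639 (0.86, 0.82 and 0.82). For Socs2 they were Smad4, Kri1 and Mup15 (0.87, 0.84 and 0.80), and for Prlr Rnpepl1, Aup1 and Fam104a (0.90, 0.86 and 0.85). For Igf1 they were Eif4ebp2, Itprid2 and Ecm1 (0.89, 0.89 and 0.88), for Igfals Mrpl15 and Pgk1 (0.89 and 0.86), and for Igfbp2 Zfpm1, Abca3 and Zfp983 (0.96, 0.91 and 0.87).

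Other genes of the pathway were counted by list. For every list, the shares over all genes in the liver cohort, kidney and the time course stand beside the counts. Limma called 0.0157%, 0.0045% and 0.00535% of all genes, and 7.99%, 5.4% and 5.99% had an unadjusted p under 0.05. Groups did not overlap, in either direction, for 13.9%, 20.5% and 0.198% of all genes. Of 21 partners of the receptors (kinases, phosphatases, adaptors and other SOCS genes), 0 were called by limma in the liver cohort, kidney or the time course, and 3, 1 and 0 had an unadjusted p under 0.05. The smallest p in the liver cohort was that of Irs2, an adaptor of the insulin and IGF1 receptors, with a log2 difference of -1.26 ± 0.33 (SE; unadjusted p = 0.005, adjusted p = 0.429), lower in every knockout. The next was Ptpn1, a phosphatase that acts on JAK2 (-0.50 ± 0.17, unadjusted p = 0.0183, adjusted p = 0.572), also lower in every knockout.

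Of the other IGF genes, 14, 15 and 13 of 15 were tested in the 3 sets and 0 were called, with 3, 3 and 1 at an unadjusted p under 0.05. Igfbp1, a binding protein whose gene insulin represses, was 1115, 3012 and 7085 counts in wild-type and 254, 576 and 834 in knockout livers of the liver cohort. It was 87.7 and 136 in wild-type and 261, 211 and 213 in knockout kidneys. The knockouts were lower in every liver of that cohort and higher in every kidney. Time course livers overlapped, at 51.8 to 556 in wild type and 32.5 to 198 in knockouts, and the knockout was higher at ZT0 and ZT20. The limma log2 differences of Igfbp1 were -2.53 ± 0.66 (SE; unadjusted p = 0.00454, adjusted p = 0.411) in the liver cohort and 1.05 ± 0.24 (unadjusted p = 0.00371, adjusted p = 0.717) in kidney, and -0.10 ± 0.50 (adjusted p = 0.987) in the time course. There the smallest p was that of the receptor gene Igf1r (0.54 ± 0.16, unadjusted p = 0.00793, adjusted p = 0.815).

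Genes that differ between the sexes in mouse liver are a known readout of the growth hormone pattern. Of 23 male-biased genes 23, 22 and 23 were tested in the liver cohort, kidney and the time course, and 0 were called in each, with 2, 5 and 2 at an unadjusted p under 0.05. In the liver cohort Elovl3, a fatty acid elongase, came first by p (-1.58 ± 0.40, unadjusted p = 0.00381, adjusted p = 0.409), lower in every knockout. There 14 of 23 male-biased genes had lower estimates in knockouts (median log2 difference -0.13), and in the time course 10 of 23 (median 0.04). In kidney 18 of 22 had lower estimates in knockouts, with a median log2 difference of -0.53 beside 0.00 over all genes, and 7 of 22 were lower in every knockout; groups did not overlap in either direction for 20.5% of all genes. Of 5 hepatocyte markers 4 also had lower estimates in knockout kidneys, and 2 were lower in every knockout: Apoa1 (28.4 to 81 counts in wild type, 6.68 to 19.1 in knockouts) and Cyp2e1 (25839 to 27446 and 21997 to 25517). Alb (164 to 772 and 184 to 396), Serpina1c (53.5 to 180 and 84.2 to 107) and Ttr (1607 to 2192 and 1382 to 3449) overlapped. Summed hepatocyte markers were 28480 to 29884 in wild-type and 25948 to 28022 in knockout kidneys, with none at 0. Cyp2e1 made up most of that sum, so in kidney the sum mainly reports that gene. In wild-type livers of the liver cohort Cyp2e1 was 58638 to 85367 and Alb 782282 to 936286. The part of these markers in the male-biased list of the kidneys was not tested. First by p there was the cytochrome gene Cyp2d9 (-0.63 ± 0.12, unadjusted p = 0.00102, adjusted p = 0.605). The list holds 8 Mup genes, near-identical copies whose counts may be split imperfectly. Of 22 female-biased genes 17, 13 and 18 were tested and 0 were called, with 2 each at an unadjusted p under 0.05. In the liver cohort 14 of these 17 had higher estimates in knockouts, with a median log2 difference of 0.26 beside 0.00 over all genes. In kidney 7 of 13 were higher (median 0.03), and in the time course 9 of 18 (median -0.01). Of 15 regulators of the hepatic response 15, 13 and 15 were tested and 0 were called, with 1, 2 and 1 at an unadjusted p under 0.05. Acot3, an acyl-CoA thioesterase, had a log2 difference of 3.22 ± 1.29 (SE; limma adjusted p = 0.605) in the liver cohort, with overlapping groups.

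The same lists were counted in the rhythm test, in which 5.8% of all genes were called. Of the male-biased genes 4 of 23 were called: Elovl3 (peak-to-trough 3.91 on the log2 scale, peak ZT0.1), Selenbp2 (1.57, ZT22.3), Cyp2u1 (1.15, ZT3.2) and, with a 1.99-fold difference, Hsd3b5 (ZT4.9). Of the female-biased genes 3 of 18 were called: Fmo2 (4.85, peak ZT15.9), Acot3 (3.98, ZT13.2) and Trim24 (0.95, ZT12.4). Of the 15 regulators 3 were called, Esr1 (1.53, ZT17.9), Trim24 and Hnf4a (0.53, ZT15.1). Of 13 other IGF genes 2 were called, Igfbp5 (1.13, ZT17.6) and Igfbp4 (0.60, ZT14.4), and of 21 receptor partners 0, with 5 of 21 at an unadjusted p under 0.05 in limma, against 21% of all genes. The 4 called male-biased genes peaked between ZT22.3 and ZT4.9 and the 3 called female-biased genes between ZT12.4 and ZT15.9. These are the called genes alone, of 23 and 18 tested, and do not describe the lists. The called regulators and IGF genes, with Trim24 counted again, also peaked in the dark, between ZT12.4 and ZT17.9. Stat5a and Stat5b peaked at ZT22.1 and ZT23.9 and Ghr at ZT10.3.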

How the data were processed

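RNA-seq of 23 liver and kidney libraries (500 ng of RNA depleted of ribosomal RNA, stranded, single reads of 100 bases, per the labels' protocols) was analysed. The values the authors deposited are estimated counts that were already normalized, a signal that is never negative, in 3 tables normalized separately, per the file headers. Beside them stand a log2 fold change and an adjusted p-value that the authors deposited for each set. The submitters' processing notes name GRCm38, DESeq, DESeq2 1.24.0, R 3.6.0 and Salmon 0.12.0 but give none of them a role. Sequencing depth before normalization was not recovered, so no count model was run, and precision rests on the spread between libraries.

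Values were taken as log2(value + 1), and genes whose mean was under 1 were dropped. Each whole table was then fitted with limma 3.58.1 (R 4.3.3; trended prior variance; tests two-sided; p-values adjusted by Benjamini-Hochberg across every gene fitted; calls under 0.05). That scale shrinks the fold changes of low genes. Time course fits had time as a factor of 6 levels, since the numbers there mark shared collection times given in the labels. Numbers of the other libraries follow the order of the labels and were not used as pairs. The labels do not say whether a liver and a kidney came from the same mouse. The p-values of kidney against liver cohort treat these libraries as independent, which could not be checked. Rhythm was an F test of a cosine and a sine of 24 h with genotype. Differences between sets or curves were interactions. Correlations used log2(value + 1) and 100000 permutations, or every order of the libraries where n was 6. Exon lengths came from GENCODE vM21. Scripts were tested on simulated data. The text names all 9 members, list genes past the threshold (up to 4) or else up to 2 with the smallest p, and up to 3 nearest patterns per member, with a few genes under this rule not reported here; the pairing of Cish with Bcl6 was chosen after its values were seen. Members and lists were chosen with earlier results of these data known. Alternatives were other pseudocounts, filters and scalings, no trend, no time term, residuals for correlations and each library or time left out. Proteins were not used here.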

Additional observations from a re-analysis of the deposited data

Results flagged for a closer look

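Cish in the wild-type library at ZT16 of the time course, at a count of 446, stood apart from the other 5 wild-type libraries, which lay between 2.43 and 120. The gap to the next library was 0.73 of the whole range of counts, above the 95% critical value of 0.625 for 6 libraries. That value, and the 1 in 20 that chance marks, hold for normally distributed values. These counts spanned 183-fold, and the check was not run on the log2 scale of the other tests. A skewed spread of counts can therefore give the mark without an unusual library. Of 18 groups of 6 libraries checked (9 genes in 2 genotypes) this was the only one so marked. The same library had the lowest Bcl6 of the wild-type course, at 97.4.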

How the results depend on the processing

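Across 954 values of single members under the alternatives, 875 kept their direction and side of the threshold, 28 lost the call, 0 gained one and 51 changed sign; none of the sign changes was a called value. The count of members called for genotype was 0 in all 3 sets, in both tests of a difference between sets and in the test of curves under every alternative run, also with no replicate block (time left out, 0). The count of rhythmic members fell from 3 to 1 with a pseudocount of 5, no filter, no trend or time as a factor, and to 0 in wild-type or knockout libraries alone; leaving out each time gave 0 to 2. The cause was not tested. Rescaled to the library sum, Ghr and Igfals in kidney became 0.01 and 0.01, and, for the peak-to-trough difference between genotypes, Prlr 0.03, Cish 0.09 and Igfals 0.11. With a pseudocount of 5 Igfbp2 became -0.03 for kidney against liver cohort, and Cish 0.23 for the difference between genotypes in peak-to-trough. Leaving out libraries or times in turn, differences that changed sign ranged as follows. Liver cohort: Prlr -0.05 to 0.42, Cish -1.41 to 0.35, Stat5a -0.16 to 0.22. Kidney: Socs2 -0.68 to 0.28, Cish -0.97 to 0.13, Igf1 -0.21 to 0.79, Igfals -0.12 to 0.05, Stat5b -0.02 to 0.21. Time course: Prlr -0.14 to 0.06, Cish -0.12 to 1.89, Igf1 -0.09 to 0.03, Stat5b -0.15 to 0.06, Igfbp2 -0.28 to 0.19. Kidney against liver cohort: Socs2 -0.37 to 0.59, Cish -0.68 to 1.09, Igf1 -0.47 to 0.52, Igfbp2 -0.28 to 0.46. Time course against liver cohort: Stat5a -0.31 to 0.07. Peak-to-trough, knockout minus wild type: Ghr -0.02 to 0.17, Prlr -0.24 to 0.27, Cish -2.57 to 3.73, Igf1 -0.31 to 0.0, Igfals -0.30 to 0.33, Stat5b -0.54 to 0.31, Igfbp2 -0.14 to 1.27. Of the correlations, Ghr with Stat5a turned from -0.75 to 0.65 in residuals after genotype and the 24 h curve. Prlr in kidney stayed between 1.53 and 1.92 (adjusted p 0.166 to 0.991), Socs2 in the time course between 0.80 and 1.25, Ghr in the liver cohort between 0.33 and 0.46 and Igfals there between 0.42 and 0.50. Where a kidney left 1 wild type, that library is assumed to vary like the others. Counts of a few reads, such as Cish at 2.43, are the least certain.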
